A study of Mus musculus and Canis lupus familiaris with 12 samples.

Results

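The nuclear genes for oxidative phosphorylation were followed in DLM8, a mouse osteosarcoma line, and Gracie, a dog osteosarcoma line, after 6 h with 50 nM omacetaxine (OMX). The members were the rows of the mouse and dog gene count tables whose symbol names a subunit of complex I (NDUFA, NDUFB, NDUFC, NDUFS or NDUFV with a number), complex II (SDHA to SDHD), complex III (UQCR genes and CYC1), cytochrome c (CYCS), complex IV (COX4 to COX8) or complex V (ATP5 genes), with pseudogene symbols left out. The members reported are 94 of 78317 mouse rows (93 symbols, as Atp5po has 2 rows) and 57 of 30424 dog rows, and all 57 dog symbols also occur in the mouse table. The groups were DLM8 cells with OMX, DLM8 control cells, Gracie cells with OMX and Gracie control cells, with 3 libraries each and 12 in all. The labels give the genotype of all cells as WT. They call the control cells untreated, while the treatment protocol names DMSO, so the word untreated below stands for the labelled group. Each species is represented by a single cell line, and the labels do not say whether the 3 libraries of a group came from separate cultures, so p-values measure only the spread between these libraries.

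Omacetaxine (homoharringtonine) is a plant alkaloid that binds the ribosome and blocks the elongation of new protein chains. Oxidative phosphorylation passes electrons from NADH through complex I, or from succinate through complex II, to ubiquinone, then through complex III, the carrier cytochrome c and complex IV to oxygen, and the proton gradient built on the way drives ATP synthesis by complex V. Most subunits are encoded in the nucleus and imported, and a few core subunits of complexes I, III, IV and V are encoded in mitochondrial DNA.

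Library totals ran between 9099313 and 11392715 counts in DLM8 and between 2385102 and 3381831 in Gracie. Of the member rows, 82 in DLM8 and 51 in Gracie passed the filter on low counts and were tested, and a median of 536.5 counts over the 6 libraries lay behind a tested DLM8 member and 738 behind a tested Gracie member. Osteoblast lineage markers were measured in both lines: 9 of 9 rows were tested in DLM8, with sums of 897 to 1344 CPM (counts scaled to library size) with OMX and 2117 to 2920 CPM untreated, and 6 of 8 in Gracie, with sums of 115 to 138 CPM with OMX and 153 to 257 CPM untreated. Of the DLM8 markers, 5 fell, among them Col1a2 (a chain of type I collagen, log2 fold change −1.52 ± 0.14 SE) and Alpl (alkaline phosphatase, −1.56 ± 0.17 SE), and 0 rose. In Gracie, SPARC (osteonectin, −2.15 ± 0.37 SE) fell and SP7 (osterix, 2.35 ± 0.35 SE) rose. Leukocyte, epithelial and endothelial markers, 9 rows in each table, summed to 3.36 to 7.68 CPM with OMX and 0.186 to 0.465 CPM untreated in DLM8, and to 7.26 to 18.9 CPM with OMX and 3.11 to 7.36 CPM untreated in Gracie. In DLM8, 3 of these rows were at 0 in all libraries and only the endothelial Cdh5 was tested, at 3.29 ± 1.85 CPM with OMX (SD, n = 3) and 0 counts untreated. In Gracie, 5 rows were at 0 and only the macrophage gene CD68 was tested and not called. The part of these marker changes in the results below was not tested.

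In DLM8, the nuclear oxidative phosphorylation genes were lower with OMX in 18 of the 82 tested rows reported here, spread over every complex, and higher in 0 of them. Among those that fell were Cycs (cytochrome c), Cyc1 (cytochrome c1 of complex III), Ndufs7 (a core iron-sulfur subunit of complex I), Cox4i1 and Cox7b of complex IV, and Atp5mc1, Atp5mc3 and Atp5f1b of complex V, by 0.58 to 1.18 on the log2 scale. In bulk samples such as these, fewer cells of a type and less RNA per cell cannot be told apart. The level of a single row also cannot be read as that of its mRNA, as the strand used in counting is not given. The members called lower made up 22% of those tested, against 15.9% of all 17109 genes tested in DLM8. By complex, the share was 8.57% of 35 rows in I, 25% of 4 in II and 22.2% of 9 in III. It was 33.3% both of the 15 rows in IV and of the 18 in V. In complex I the share called lower was thus below that of all genes. Of all genes, 19.4% were called higher. A gene was called where the Benjamini-Hochberg adjusted p of edgeR's quasi-likelihood test, taken over the whole table, was under 0.05. At an unadjusted p under 0.05 in edgeR, 0 of these members were higher, and DESeq2 called 0 higher.

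The median log2 fold change of the 82 members was −0.48, with a range of −1.57 to 0.31, against a median of 0.02 over all genes tested. A negative log2 fold change was found in 76 members (92.7%), against 49.2% of all genes. In 31 members (37.8%) the OMX and untreated libraries did not overlap, against 49% of all genes. Most members thus had a negative value, while the libraries of both groups overlapped in most of them. Called members held a median of 1074.5 counts and had a median SE of 0.21, while the 64 that were not called held a median of 464 counts and had a median SE of 0.29. The count of members called lower was 10 without OMX replicate 2, against 22 without OMX replicate 1. It was 12 of 82 when libraries were scaled by their totals alone, against 11.6% of all genes on that scaling.

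In Gracie, 2 of the 51 tested members fell and 1 rose. ATP5F1C and ATP5F1B, the gamma and beta subunits of the F1 motor of complex V, fell by 1.15 and 0.73 on the log2 scale, and UQCRC1, a core subunit of complex III, rose by 1.05. The members called lower made up 3.92%, against 8.06% of all 10423 genes tested, and the 1 called higher made up 1.96%, against 12.5%. The median log2 fold change of the members was −0.13, with a range of −1.15 to 1.05, against −0.01 over all genes. That median was −0.29 without untreated replicate 1, −0.23 without OMX replicate 3, −0.21 without untreated replicate 2 and −0.27 with library totals alone. A negative value was found in 39 members (76.5%), against 50.3% of all genes, and the groups did not overlap in 15 members (29.4%), against 39.7% of all genes. Without untreated replicate 2, 1 member was called lower, and 5 of 51 were with scaling by library totals alone, against 11.6% of all genes on that scaling.

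Summed over all tested member rows, DLM8 held 1481, 1556 and 1465 CPM with OMX and 1930.2, 1976 and 1999 CPM untreated, so the groups did not overlap. The sums were 63.9 ± 6.84 CPM with OMX and 84.5 ± 4.53 CPM untreated for complex II, 108 ± 10.7 CPM with OMX and 156 ± 5.89 CPM untreated for complex III, and 833 ± 47.2 CPM with OMX and 1049.9 ± 17.3 CPM untreated for complex V (SD, n = 3 each). Without the Atp5pb row the complex V sum was 406 ± 37.4 CPM with OMX and 563 ± 26.2 CPM untreated. In Gracie the sum over all tested member rows was higher with OMX, at 5231, 5192 and 5507 CPM with OMX and 4317, 4794 and 5081 CPM untreated, and the groups did not overlap. Without the UQCRC1 row it was lower with OMX, at 3039 ± 283 CPM with OMX and 3631 ± 450.3 CPM untreated (SD, n = 3 each), and the groups overlapped. Complex II held 202 ± 31.2 CPM with OMX and 241 ± 19.8 CPM untreated, complex IV 192 ± 34.7 CPM with OMX and 241 ± 42.6 CPM untreated, and complex V 1109 ± 124 CPM with OMX and 1364 ± 150.1 CPM untreated. In the Gracie sums of complexes II, IV and V the libraries of the groups overlapped.

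**Figure D1:**
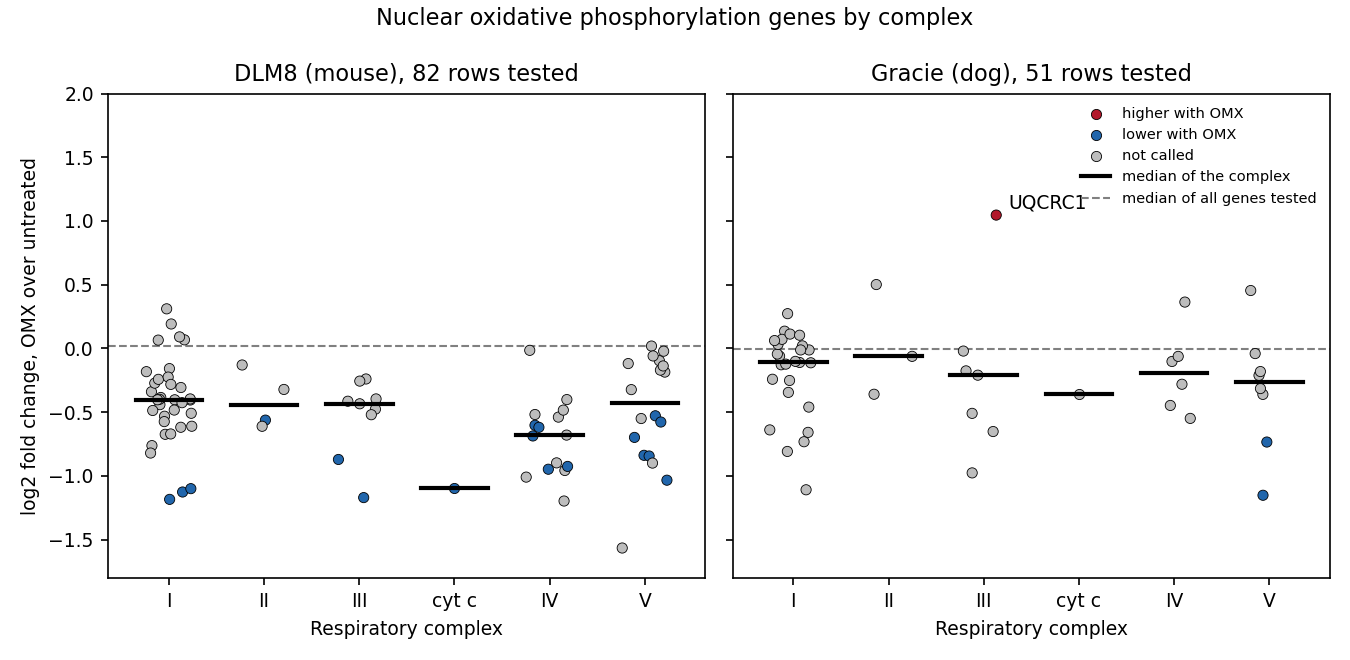
Log2 fold change of each tested member, OMX over untreated, by respiratory complex, in DLM8 (left) and Gracie (right). Each point is a gene, coloured by its call, the black bar is the median of the complex and the dashed line the median of all genes tested. In DLM8 the points lie mostly below the line in every complex, and in Gracie UQCRC1 stands at 1.05.

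Complex I, the NADH dehydrogenase, contributed 40 mouse rows, of which 35 were tested. With OMX 3 fell, 0 rose and 32 were not called, with a median log2 fold change of −0.40 (quartiles −0.59 and −0.26). Ndufs7 had 4.54, 4.53 and 3.01 CPM in the 3 OMX libraries, against 7.61, 9.64 and 10.3 CPM in the untreated libraries. All OMX libraries lay below all untreated ones, and the log2 fold change was −1.18 (adjusted p = 0.00975, SE 0.30). Ndufb10, an accessory subunit of the membrane arm, had 4.35, 5.10 and 7.37 CPM with OMX and 14.7, 13.4 and 8.60 CPM untreated (log2 fold change −1.13, SE 0.31, adjusted p = 0.0130). Ndufc2, another accessory subunit of the membrane arm, had 4.35, 4.34 and 4.36 CPM with OMX and 8.73, 7.01 and 12.3 CPM untreated (log2 fold change −1.10, SE 0.30, adjusted p = 0.0141). The Ndufb10 call was lost without OMX replicate 2 (adjusted p = 0.0526). The Ndufc2 call was lost without untreated replicate 3 (adjusted p = 0.0766) and with libraries thinned to the mean Gracie total (adjusted p = 0.226). Core subunits that were not called included Ndufs1, which carries iron-sulfur clusters of the electron input arm, with a log2 fold change of 0.09 ± 0.21 (SE), Ndufv1, which binds NADH and FMN, at −0.40 ± 0.29, Ndufs3 −0.28 ± 0.19, Ndufs8 −0.82 ± 0.37 and Ndufv2 −0.43 ± 0.20. The Ndufs1 row faces Ino80dos on the opposite strand, with 15.2 times its counts and a log2 fold change of −0.13. The Ndufs3 row faces Kbtbd4, with 4.53 times its counts and a log2 fold change of 0.18. Among the complex I rows reported, the highest count stood in Ndufb1, an accessory subunit, at 55.0 ± 7.72 CPM with OMX and 71.9 ± 12.8 CPM untreated (SD, n = 3 each), and it was not called (adjusted p = 0.109), while it was without untreated replicate 1 (adjusted p = 0.0399).

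The complex I members together held 312, 308 and 318 CPM with OMX and 385, 404 and 425 CPM untreated, and the groups did not overlap.

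In Gracie, 26 complex I rows were tested, 0 fell, 0 rose and the median log2 fold change was −0.11 (quartiles −0.32 and 0.03). That median was −0.19 without untreated replicate 1 and −0.02 without untreated replicate 3. NDUFB10 had 37.8, 58.7 and 66.5 CPM with OMX and 63.9, 102 and 121 CPM untreated, and the groups overlapped (log2 fold change −0.81, SE 0.28, adjusted p = 0.0564). NDUFB10 passed the threshold once untreated replicate 1 was left out (adjusted p = 0.00828), and also with DESeq2 (0.0408), without a filter (0.0133), with library totals alone (0.0339), with upper-quartile scaling (0.0483) and with halved counts (0.0481). The lowest value was that of NDUFA12, an accessory subunit, at −1.11 ± 0.49 (SE, adjusted p = 0.128). NDUFS7, which fell in DLM8, stood at −0.11 ± 0.36 in Gracie. The 5 complex I rows below the filter in DLM8 (Ndufa11b, Ndufb4b, Ndufb4c, Ndufb11b and Ndufs6b) had 0 to 9 counts. The Gracie row with the most complex I counts was NDUFS6, an accessory subunit that holds zinc, with 213 ± 27.6 CPM with OMX and 197 ± 63.1 CPM untreated (SD, n = 3 each) and a log2 fold change of 0.11 ± 0.24 (SE).

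Complex II, the succinate dehydrogenase that also serves the citric acid cycle, is encoded in the nucleus in full. In DLM8 all 4 subunits had negative log2 fold changes and 1 was called. Sdhc, a membrane anchor, had 17.2, 16.1 and 18.3 CPM with OMX and 24.04, 27.2 and 24.9 CPM untreated (log2 fold change −0.56, SE 0.18, adjusted p = 0.0304). The call was lost without OMX replicate 2, untreated replicate 2 or untreated replicate 3 (adjusted p = 0.0684 to 0.106), with scaling by library totals alone (adjusted p = 0.0966), without a filter (adjusted p = 0.0593) and after thinning (adjusted p = 0.0658). Sdhd, the other anchor, stood at −0.61 ± 0.24 (SE), the flavoprotein Sdha at −0.32 ± 0.21 and the iron-sulfur subunit Sdhb at −0.13 ± 0.24. Sdha was called without OMX replicate 1 (log2 fold change −0.56, adjusted p = 0.0260). In Gracie 3 subunits were tested and 0 called: SDHA had −0.36 ± 0.20, SDHB −0.06 ± 0.28 and SDHC 0.50 ± 0.42. The Gracie median of −0.06 changed sign without OMX replicate 1 (0.15) and without untreated replicate 2 (0.01), and was −0.23 to −0.10 without each of the other libraries.

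Complex III, the cytochrome bc1 complex, had 9 tested rows in DLM8, all negative, with a median of −0.43. That median was −0.70 without OMX replicate 1 and −0.32 without OMX replicate 3. Cyc1 had 15.4, 23.6 and 22.2 CPM with OMX and 36.8, 38.6 and 36.7 CPM untreated, and its log2 fold change was −0.87 (adjusted p = 0.00450, SE 0.20). Uqcrb, a small subunit near the ubiquinone site, had 2.17, 2.27 and 2.60 CPM with OMX and 6.50, 2.85 and 6.51 CPM untreated (log2 fold change −1.17, SE 0.42, adjusted p = 0.0481). Its row faces Ramacl on the opposite strand, which held 38.5 times its counts and had a log2 fold change of −1.07. The Uqcrb call was lost when any one of OMX replicates 1, 2 and 3 or untreated replicates 1 and 3 was left out (adjusted p = 0.0738 to 0.148) and with scaling by library totals alone (adjusted p = 0.0784). Uqcrc1 had 39.1, 36.8 and 29.7 CPM with OMX and 44.4, 49.5 and 46.9 CPM untreated. The groups did not overlap, yet the adjusted p was 0.0717, and it was 0.0231 without OMX replicate 1 and 0.0403 with upper-quartile scaling.

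The dog UQCRC1 row went the other way and held most counts of its complex. It had 2507, 2073 and 2234 CPM with OMX and 1197, 994 and 1109 CPM untreated (log2 fold change 1.05, SE 0.17, adjusted p = 0.000786). All OMX libraries lay above all untreated ones, and the call held without each library in turn. The summed CPM of complex III in Gracie was 2508 ± 185 with OMX and 1417 ± 76.5 untreated (SD, n = 3 each), and without UQCRC1 it was 237 ± 34.7 with OMX and 317 ± 35.2 untreated. The other 6 subunits were all negative and not called, with a median of −0.36. UQCRB had 11.1, 23.0 and 14.0 CPM with OMX and 33.3, 33.5 and 28.6 CPM untreated (log2 fold change −0.98, SE 0.34, adjusted p = 0.0560). In the mouse annotation Col7a1, which encodes type VII collagen, is the next gene to Uqcrc1 on the same strand. The dog COL7A1 row had 90.3, 114 and 113 CPM with OMX and 55.8, 33.9 and 25.5 CPM untreated (log2 fold change 1.46, SE 0.28, adjusted p = 0.00242), and the mouse Col7a1 row had 1.33 ± 0.522 CPM with OMX and 0.506 ± 0.696 CPM untreated (SD, n = 3 each) and was not called. This neighbour was looked at after the values were seen, positions of dog genes were not read, and the part of the neighbouring gene in these rows was not tested.

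**Figure D2:**
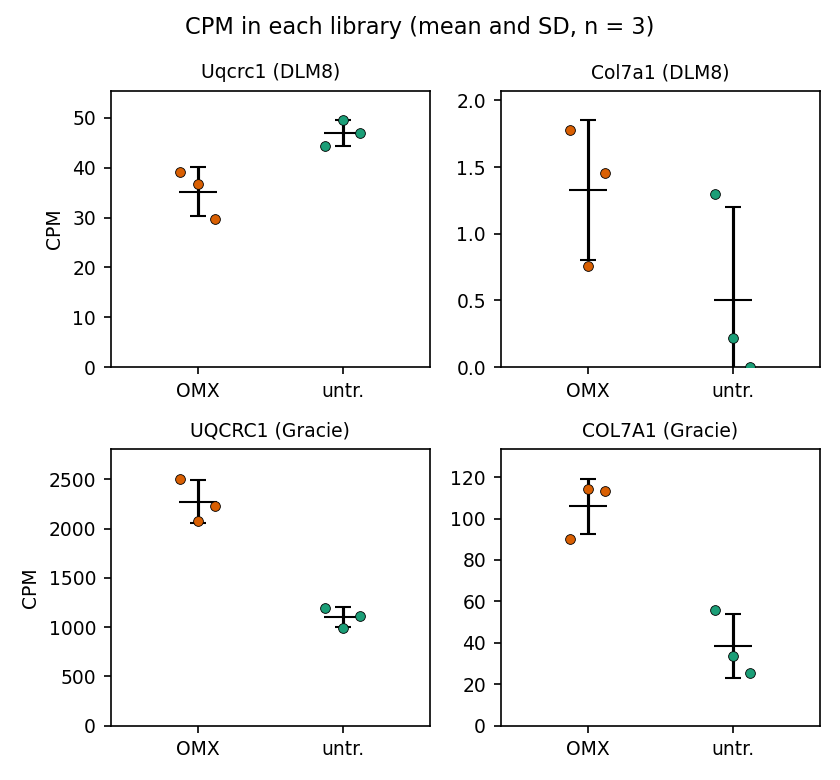
CPM of Uqcrc1 and of the neighbouring Col7a1 row, in DLM8 (top) and Gracie (bottom). Points are libraries, with OMX on the left and untreated on the right of each panel, and the bars give the mean and SD (n = 3). UQCRC1 and COL7A1 are higher with OMX in Gracie.

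Cytochrome c, the soluble carrier between complexes III and IV that also triggers caspase activation once in the cytosol, is encoded by Cycs. It had 5.93, 6.23 and 4.98 CPM with OMX and 12.3, 11.6 and 12.8 CPM untreated in DLM8, or −1.09 as a log2 fold change (SE 0.25, adjusted p = 0.00482). The groups were far apart relative to their spread, and the call held without each library in turn. In Gracie, CYCS had 199, 270.2 and 243 CPM with OMX and 324, 297 and 293 CPM untreated. These groups did not overlap either, and the gene was not called (log2 fold change −0.36, SE 0.19, adjusted p = 0.201).

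Complex IV, the cytochrome c oxidase, had the lowest median of the complexes I to V in DLM8, at −0.68 (quartiles −0.94 and −0.53), with 15 of 15 tested members negative and 5 called lower. Its quartile range overlapped those of complexes I, II and V and lay just below that of complex III (quartiles −0.52 and −0.40), and no difference between complexes was tested. Without OMX replicate 1 the median of complex III was lower than that of complex IV (−0.70 and −0.68). The complex IV members together held 179, 185 and 166 CPM with OMX and 261, 259 and 264 CPM untreated. Cox4i1, the ubiquitous form of the regulatory subunit 4, had 13.4, 15.9 and 14.1 CPM with OMX and 25.1, 23.6 and 21.3 CPM untreated (log2 fold change −0.69, SE 0.19, adjusted p = 0.0152). Its row faces Emc8, with 24.1 times its counts and a log2 fold change of −0.33. The accessory subunit gene Cox7b had 6.52, 5.48 and 4.98 CPM with OMX and 11.5, 10.1 and 10.7 CPM untreated (log2 fold change −0.93, SE 0.26, adjusted p = 0.0150). Cox7c, Cox8a and Cox6a1, also accessory subunits, fell by 0.95, 0.62 and 0.60 on that scale (SE 0.27, 0.18 and 0.19, adjusted p = 0.0163, 0.0183 and 0.0261).

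Several complex IV calls were close to the threshold. The Cox7b call was lost without OMX replicate 2 (adjusted p = 0.0506) and after thinning (adjusted p = 0.0505), the Cox4i1 call without untreated replicate 2 (adjusted p = 0.0511), and the Cox7c call without OMX replicate 2 (adjusted p = 0.0708), without untreated replicate 1 (adjusted p = 0.0592) and after thinning (adjusted p = 0.0773). The Cox8a call was lost without OMX replicate 3 or untreated replicates 2 or 3 (adjusted p = 0.0580 to 0.0636), with library totals alone (adjusted p = 0.0618) and after thinning (adjusted p = 0.127). The Cox6a1 call was lost without OMX replicates 2 or 3 or untreated replicates 1 or 3 (adjusted p = 0.0757 to 0.0925) and with library totals alone (adjusted p = 0.0806).

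Complex IV has isoforms tied to certain tissues or to low oxygen. Cox4i2, the hypoxia-responsive form of subunit 4, had 8.59, 5.85 and 3.74 CPM with OMX and 17.3, 9.86 and 8.13 CPM untreated (log2 fold change −0.96, SE 0.36, adjusted p = 0.0588), and its groups overlapped. Ndufa4, first named as a complex I subunit and now placed in complex IV, stood at −1.01 ± 0.37 (SE, adjusted p = 0.0524), and its hypoxia-inducible paralog Ndufa4l2 at −0.90 ± 0.38 (adjusted p = 0.0884), on a row that faces Shmt2, which had a log2 fold change of −1.02 and 4.86 times the counts. These 3 genes were called in some alternatives: Cox4i2 without OMX replicate 1 (adjusted p = 0.0137) and without untreated replicate 3 (0.0418), Ndufa4 without untreated replicate 1 (0.0202) and Ndufa4l2 without OMX replicate 1 (0.00740). Without a filter all 3 were called (adjusted p = 0.0130, 0.0149 and 0.0143 in that order), and Cox4i2 and Ndufa4 were also called with DESeq2 (0.0414 and 0.0385) and with upper-quartile scaling (0.0451 and 0.0405). Cox6c, at 35.3 ± 10.5 CPM with OMX and 35.7 ± 6.52 CPM untreated (SD, n = 3 each), had a log2 fold change of −0.02 ± 0.23 (SE). The muscle, heart, testis and related forms Cox7a1, Cox8b, Cox8c, Cox7b2, Cox6b2 and Cox6c2 had 0 to 40 counts over the 6 libraries and were not tested. Cox6a2, another such form, was tested on 94 counts and not called (log2 fold change −1.20, SE 0.72, adjusted p = 0.221). In Gracie, 6 complex IV rows were tested and 0 called, with a median of −0.19, which was −0.40 without untreated replicate 1, −0.33 without OMX replicate 3 and −0.09 without untreated replicate 3. COX4I1 had 48.4, 62.9 and 76.6 CPM with OMX and 76.7, 93.4 and 86.7 CPM untreated (log2 fold change −0.45, SE 0.23, adjusted p = 0.191). COX7A1 was tested on 53 counts and stood at −0.06 ± 0.74 (SE). NDUFA4L2, COX4I2, COX6A2 and COX7B2 had 0 to 15 counts in Gracie and were not tested.

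Complex V, the ATP synthase, had 18 tested rows in DLM8 with a median of −0.43, of which 6 fell and 0 rose. The mammalian c subunit, whose ring turns in the membrane, is made as the same mature protein from Atp5mc1, Atp5mc2 and Atp5mc3. Atp5mc3 had 37.1, 47.2 and 36.5 CPM with OMX and 73.0, 72.4 and 70.9 CPM untreated (log2 fold change −0.84, SE 0.16, adjusted p = 0.00146). Atp5mc1 had 10.9, 17.3 and 13.9 CPM with OMX and 27.5, 32.0 and 26.7 CPM untreated (log2 fold change −1.03, SE 0.21, adjusted p = 0.00275). For both genes the OMX libraries lay well below the untreated ones. Atp5mc2, by contrast, had 23.2, 36.9 and 31.0 CPM with OMX and 25.3, 38.4 and 35.4 CPM untreated, with overlapping groups (log2 fold change −0.12, SE 0.22, adjusted p = 0.704). The difference between the 3 genes was not tested.

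Of the F1 head, 3 subunit genes fell. Atp5f1b, the beta subunit that holds the catalytic sites, had 82.6, 89.5 and 77.0 CPM with OMX and 112, 133 and 127 CPM untreated (log2 fold change −0.58, SE 0.14, adjusted p = 0.00592). Atp5f1a, the alpha subunit, fell by 0.53 (SE 0.14, adjusted p = 0.0122), a call lost without untreated replicate 2 (adjusted p = 0.0693) and with library totals alone (adjusted p = 0.0529). The gamma subunit gene Atp5f1c and Atp5mg, a subunit of the membrane sector, are named after their values were seen, and fell by 0.70 and 0.84 in log2 fold change (SE 0.20 and 0.28, adjusted p = 0.0169 and 0.0360). The Atp5f1c call was lost without OMX replicate 2 (0.0566), without untreated replicate 3 (0.0681) and after thinning (0.0904). Atp5mg faces Gm30934, with 108 times its counts and a log2 fold change of −0.43, and its call was lost without any one library other than OMX replicate 1 (adjusted p = 0.0599 to 0.108), with library totals alone (0.0777), without a filter (0.0696) and after thinning (0.124). The row with the most complex V counts was Atp5pb, subunit b of the stalk, at 427.7 ± 21.6 CPM with OMX and 486.5 ± 10.5 CPM untreated (SD, n = 3 each), and it was not called (log2 fold change −0.19, SE 0.10, adjusted p = 0.179). Atp5if1, the inhibitor of ATP hydrolysis by the enzyme, stood at −0.10 ± 0.28 (SE). The second Atp5po row had 0 counts.

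In Gracie, 8 complex V rows were tested, with a median of −0.26. That median was −0.004 without OMX replicate 1, where 9 rows passed the filter, and −0.49 over 8 rows without OMX replicate 3. ATP5MK and ATP5F1E, with 0 and 50 counts, were below the filter. ATP5F1C had 26.3, 33.3 and 31.3 CPM with OMX and 70.1, 68.9 and 63.5 CPM untreated, the lowest log2 fold change of all Gracie members (−1.15, SE 0.23, adjusted p = 0.00352), and its call held without each library in turn. ATP5F1B had 272, 309 and 340.5 CPM with OMX and 453, 539 and 541 CPM untreated (log2 fold change −0.73, SE 0.19, adjusted p = 0.0123), a call lost without OMX replicate 2 (adjusted p = 0.0692) or untreated replicate 2 (adjusted p = 0.0579). ATP5F1A had 211, 294 and 311 CPM with OMX and 271, 361 and 417 CPM untreated, with overlapping groups (log2 fold change −0.36, SE 0.22, adjusted p = 0.268). ATP5F1D, the delta subunit of the F1 stalk, had 345, 329.8 and 334 CPM with OMX and 245, 257 and 234 CPM untreated. Its OMX libraries were all higher than its untreated ones, and it was not called (log2 fold change 0.45, SE 0.18, adjusted p = 0.0853).

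**Figure D3:**
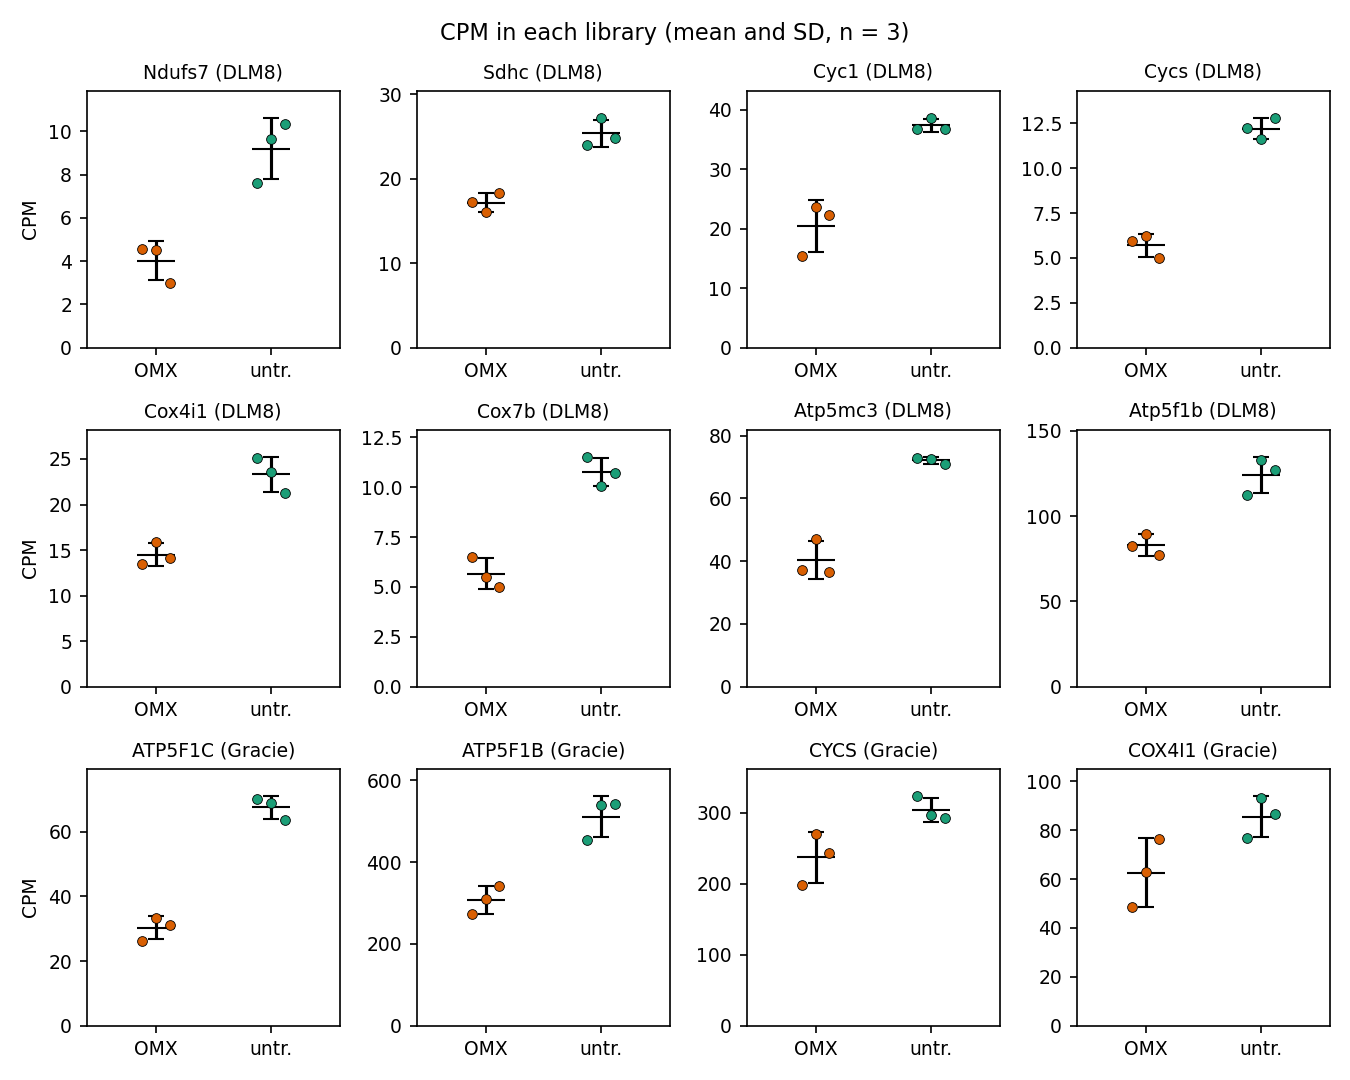
CPM of 8 members in DLM8 and 4 in Gracie in each library, with OMX on the left and untreated on the right of each panel, and the mean and SD (n = 3). In each of the 12 panels the OMX libraries lie below the untreated ones, and CYCS and COX4I1 in Gracie were not called.

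Between lines, 50 members were tested for a difference in the OMX response, DLM8 minus Gracie, and 35 had negative log2 fold changes in both. The difference was called for 2 members (4%), against 12.1% of 7582 genes tested. UQCRC1 was not called in DLM8 (−0.41) and rose in Gracie (1.05), a difference of −1.46 (SE 0.24, adjusted p = 0.000594). ATP5F1D, not called in DLM8 (−0.32) or in Gracie (0.45), had a difference of −0.78 (SE 0.25, adjusted p = 0.0449). The UQCRC1 difference was called without each library in turn. The ATP5F1D call was lost without any one of OMX replicates 2 and 3 or untreated replicates 1 and 2 in DLM8, or of OMX replicates 1, 2 and 3 or untreated replicates 2 and 3 in Gracie (adjusted p = 0.0678 to 0.122), with library totals alone (0.227) and without a filter (0.0678). CYCS, which was called in DLM8 alone, had a difference of −0.73 (SE 0.27, adjusted p = 0.0862), so that a difference between the lines was not shown for it. The F1 genes ATP5F1B and ATP5F1C were called lower in both lines, and 10 members were called lower in DLM8 and not called in Gracie. The shares of all 7582 genes with such calls, or negative in both lines, are not given here. These counts are therefore not set against other genes.

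**Figure D4:**
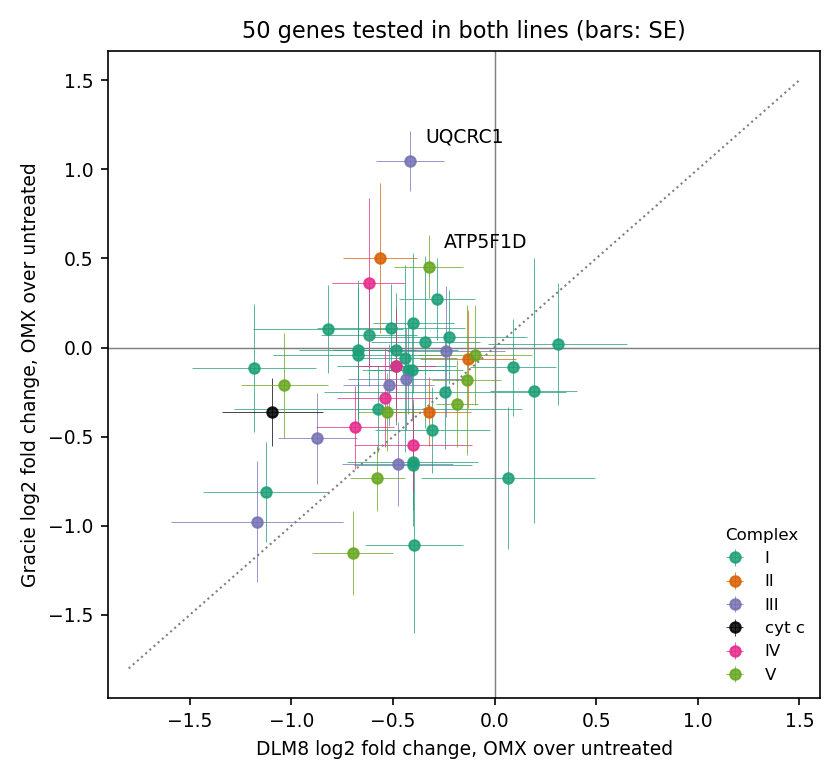
Log2 fold change, OMX over untreated, in DLM8 (horizontal) and Gracie (vertical) of the 50 members tested in both lines, coloured by complex, with SE bars and a dotted line of equal response. Most points (35) lie below 0 on both axes, and the 2 named genes are those whose responses differed between the lines.

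The strand used in counting is not given in the sources used here, so counts of a gene and of an overlapping gene on the opposite strand cannot be told apart. Of the tested DLM8 members, 31 overlap such a gene in the mouse annotation, and the facing row held more counts than the member's own row for 19 of them, and over 5 times more for 15 (median ratio 4.86). Of 26 pairs in which both rows were tested, 19 shared a sign. In 3 pairs both rows were called, each pair in the same direction. Among the 51 tested members that face no gene, 14 fell, 0 rose and the median was −0.52. Among the 31 that face a gene, 4 fell, 0 rose and the median was −0.40. The median was no closer to 0 in rows without an annotated opposite-strand gene. This comparison does not show which strand was counted, as the strand setting also applies to rows that face no gene. The level of a single row cannot be read as the level of its mRNA. Many of these genes also have processed pseudogenes, and how reads with several positions were counted is not given in the sources used here.

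**Figure D5:**
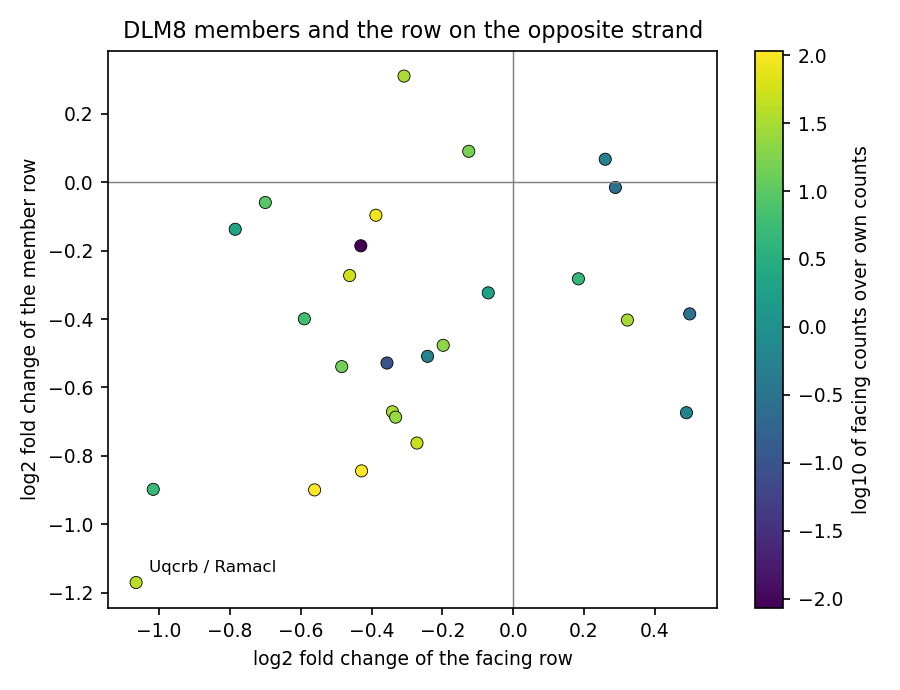
Log2 fold change, OMX over untreated, of 26 DLM8 members (vertical) and of the row on the opposite strand (horizontal), coloured by the log10 of the ratio of facing to own counts. The member rows lie between −1.17 and 0.31, and the Uqcrb and Ramacl pair is at the lower left (−1.17 and −1.07).

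The promoters of respiratory genes are known for sites of NRF1, a transcription factor of mitochondrial biogenesis. RefSeq promoters (GRCm38.p6, 250 bases before to 50 after the start) were found for 57 of 94 mouse member rows, with 59 windows. No window was found for Cyc1, Uqcrb, Sdhc, Cox4i1 or any of the 6 complex V genes that fell in DLM8. The NRF1 letters GCGCANGCG, on either strand, occurred in 15 windows (25.4%), against 6.25% of all 32851 promoter windows. The letters AAGATGGCG of YY1 occurred in 8.47%, against 1.40%, the letters CCGGAAGT of ETS factors such as GABP in 6.78%, against 3.89%, and the E-box CACGTG bound by MYC and others in 6.78%, against 7.15%. Among genes with a window, the NRF1 letters were present in 3 of 8 that fell in DLM8 and in 11 of 44 that were not called, which is a description with no test. The promoters of the 3 that fell are shown because they carry the letters, in capitals, read 5′ to 3′ on the strand of the gene, and a match is not a site.
Cox6a1 (chr5:115348909-115349208, minus strand): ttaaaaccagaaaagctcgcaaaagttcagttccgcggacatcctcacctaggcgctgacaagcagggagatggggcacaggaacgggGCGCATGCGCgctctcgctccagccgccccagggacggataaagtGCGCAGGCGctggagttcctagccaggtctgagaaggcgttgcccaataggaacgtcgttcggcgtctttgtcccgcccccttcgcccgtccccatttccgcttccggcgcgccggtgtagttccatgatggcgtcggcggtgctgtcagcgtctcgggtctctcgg
Cycs (chr6:50566520-50566819, minus strand): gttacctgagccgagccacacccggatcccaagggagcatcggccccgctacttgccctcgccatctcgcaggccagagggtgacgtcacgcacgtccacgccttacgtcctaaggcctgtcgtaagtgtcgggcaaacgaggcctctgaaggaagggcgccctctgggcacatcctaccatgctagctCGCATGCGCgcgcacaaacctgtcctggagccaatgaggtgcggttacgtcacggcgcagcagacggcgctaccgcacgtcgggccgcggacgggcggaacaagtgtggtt
Ndufb10 (chr17:24724374-24724673, minus strand): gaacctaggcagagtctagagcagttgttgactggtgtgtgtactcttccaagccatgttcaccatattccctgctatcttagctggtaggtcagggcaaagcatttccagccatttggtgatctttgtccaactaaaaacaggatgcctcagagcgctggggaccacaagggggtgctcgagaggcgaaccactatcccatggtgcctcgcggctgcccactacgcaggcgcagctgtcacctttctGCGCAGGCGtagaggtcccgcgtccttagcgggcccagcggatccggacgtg
The Cox6a1 window holds the letters at 3 positions, of which the first 2 overlap, and the Cycs window holds them on the opposite strand. Cycs fell by 1.09, Ndufb10 by 1.13 and Cox6a1 by 0.60 on the log2 scale.

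Other genes of the pathway were read beside the members. Of the mitochondrially encoded subunits, 7 of 13 rows were tested in DLM8, 5 fell and 0 rose, with a median log2 fold change of −0.64. The mt-Nd1 row had 35.8 ± 11.6 CPM with OMX and 74.6 ± 5.59 CPM untreated (SD, n = 3 each), with a log2 fold change of −1.06 (adjusted p = 0.00209, SE 0.21). The mt-Nd6 row, whose gene lies on the strand opposite to most mitochondrial genes, held 1425 ± 173 CPM with OMX and 2216 ± 450 CPM untreated, most of the counts of these rows, and fell by 0.64 (SE 0.14, adjusted p = 0.00448). The rows of mt-Co2, mt-Co3 and mt-Atp6 had 0 to 6 counts in each library and were not tested. The strand used in counting is not given, so the level of a mitochondrial row cannot be read as that of its mRNA. The part of the strand in these rows was not tested. All 12 mitochondrial rows of the dog table had 0 counts, so these subunits were not compared in Gracie. Among assembly factors, 7 of 48 fell and 2 rose in DLM8, with a median of −0.35: Cox20 and Cox15, which serve complex IV assembly, fell by 1.03 and 1.18, and Sdhaf2, which helps attach FAD to SDHA, rose by 0.49. In Gracie 1 of 43 fell (COX20, by 1.21) and 1 rose (COA4, 2.07), with a median of −0.10.

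Genes that feed and serve the chain were read in the same way. Of 18 citric acid cycle and pyruvate dehydrogenase genes, 9 fell and 0 rose, with a median of −0.53, among them Ogdh (−1.20), Pdha1 (−0.91) and Cs (−0.80), and in Gracie 3 of 15 fell and 0 rose (FH, IDH2 and SUCLG2), with a median of −0.54. Of 6 carriers of ATP and phosphate and outer membrane channels, 5 fell and 0 rose in DLM8, with a median of −1.03. The ADP/ATP carrier Slc25a5 had 52.5 ± 6.13 CPM with OMX and 133 ± 9.83 CPM untreated (SD, n = 3 each), and fell by 1.34 (SE 0.15, adjusted p = 2.84e-05). In Gracie 2 of 6 fell, VDAC1 (−1.15) and SLC25A4 (−0.88), and 0 rose, with a median of −0.53. Of 12 regulators of mitochondrial biogenesis tested in DLM8, 1 fell (Gabpa, a subunit of GABP, −0.79) and 2 rose (Tfb1m, 1.10, and Ppargc1b, 1.82), with a median of −0.24, and in Gracie 1 of 12 rose (PPRC1, 1.16) and 0 fell, with a median of 0.07. These counts stand against the shares of all genes given above, and no test compared a list with other genes. Gabpa faces the member Atp5pf on the opposite strand, with 10581 counts against 5215 for Atp5pf (log2 fold change −0.14 ± 0.17 SE). The counts of these 2 genes cannot be told apart.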

How the data were processed

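RNA-seq gene counts of 2 osteosarcoma lines, 6 libraries each, were used as deposited: whole-number counts per gene that the authors made, per the submitters' processing notes, with STAR, featureCounts and Subread and the builds CanFam3.1, GRCm39 and mm39. The sources used here give neither versions nor the strand and mate settings. Libraries were made after poly(A) selection, per the labels' protocols. Every column was mapped to a sample by its label (0 were not).

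Each line was fitted in R 4.3.3 with edgeR 4.0.16: filterByExpr, TMM scaling, glmQLFit and glmQLFTest of OMX against untreated, with Benjamini-Hochberg adjusted p over 17109 genes in DLM8 and 10423 in Gracie. CPM were computed on TMM-scaled totals, and SE as the absolute log2 fold change over the root of F. The difference between lines was the interaction term over 7582 genes shared by symbol. The fits were tested on simulated data. The members and the 7 gene lists were chosen with earlier results of these data known, and so were the neighbour of Uqcrc1 and the setting that leaves out UQCRC1. One gene that the symbol rule also selects is not reported here: it stayed in the fits across all genes and was left out of every count, median, sum and figure of the members, so statements on how many members rose or fell cover the reported members alone. NDUFA4 and NDUFA4L2 were counted in complex IV. Named were up to 4 called members per complex and direction with the smallest p (or the 2 smallest where none was called), the member with the most counts, isoforms, the called interactions and up to 3 genes per list.

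Opposite-strand overlap came from GENCODE M21 (build GRCm38, not that of the table). It gave the facing genes and the split of members into those that face a gene and those that face none. Dog rows were placed in this split by their mouse counterparts. Alternatives were other scalings, DESeq2 1.42.0, other filters, halved counts (67.7% to 73.7% of nonzero counts were even, as when mates are counted apart), thinning of DLM8 to the mean Gracie total, a replicate block and leaving out each library. The filter was applied again in each alternative fit, so the rows tested could change with the setting. No set test was run, and 3 libraries against 3 cannot go below 0.1 in an exact permutation test of a single value.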

Additional observations from a re-analysis of the deposited data

Results flagged for a closer look

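For 2 members the OMX response differed between the lines by the interaction test, DLM8 minus Gracie on the log2 scale. UQCRC1 differed by −1.46, with all OMX libraries below all untreated ones in DLM8 and above them in Gracie. ATP5F1D differed by −0.78, with all OMX libraries below all untreated ones in DLM8 and above them in Gracie. The ATP5F1D call was lost under 11 of 20 alternatives, and the UQCRC1 call held under all 20. The mouse Atp5f1d row faces Cbarp on the opposite strand, with 1.76 times its counts and a log2 fold change of −0.07. The part of neighbouring or facing genes in the 2 differences was not tested.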

How the results depend on the processing

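Members called lower in DLM8 numbered 18 and ranged over 10 (without OMX replicate 2) to 22 (without OMX replicate 1) when a library was left out. They numbered 12 with library totals alone, 12 after thinning, 25 with upper-quartile scaling and 23 with the replicate block. The DLM8 median of −0.48 ranged over −0.56 (without OMX replicate 1) to −0.45 (without untreated replicate 2) and was −0.34 with library totals alone and −0.55 with upper-quartile scaling. Library totals alone moved the median of all genes by 0.14 in DLM8 and −0.13 in Gracie. Lower calls then made up 33.4% of all calls in DLM8 (45.2% with TMM) and 52.6% in Gracie (39.1% with TMM). On the same scaling the DLM8 medians of complexes I and II were −0.26 and −0.30, those of III and V −0.29 and −0.28, and in Gracie those of I, II, III and IV −0.24, −0.18, −0.33 and −0.31. Complex II had −0.57 to −0.39 with a library left out and −0.56 over members facing no gene. Members called higher in DLM8 numbered 0 under every alternative run, and in Gracie 0 without UQCRC1.

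Members called lower in Gracie numbered 2, with 5 under library totals alone, 4 under DESeq2, 4 without a filter, 4 with the replicate block, and 1 (without untreated replicate 2) to 4 (without untreated replicate 1) with a library left out. The Gracie median of complex V was −0.73 over members facing no gene, and that of complex II was 0.22, that of complex I −0.19 and that of complex IV −0.08. Without a filter that of complex IV was −0.10. The interaction was called for 2 members, for 1 to 2 with a library left out, and for 1 with library totals alone, without a filter and over members facing no gene. The causes were not tested. Of 21 called members named, 8 stayed called under every alternative: Ndufs7, Cyc1, Cycs, Atp5mc1, Atp5mc3 and Atp5f1b in DLM8 and ATP5F1C and UQCRC1 in Gracie. No result changed its called direction. The replicate numbers are not stated to mark a shared culture. The correlation of deviations between same-numbered libraries was 0.20, 0.04 and 0.11 in DLM8 and 0.13, −0.02 and 0.18 in Gracie. Between differently numbered libraries it ran from −0.16 to 0.06 in DLM8 and from −0.17 to 0.03 in Gracie. Whether same-numbered libraries share a culture or batch was not tested. With the block the interaction called 2 members. Of the named members, the block also called Ndufb1 (adjusted p = 0.0332), Uqcrc1 (0.0457), Cox4i2 (0.0109), Ndufa4 (0.0183) and Ndufa4l2 (0.0110) in DLM8 and NDUFB10 (0.0127) in Gracie, did not call Uqcrb (0.0569), and changed no other call. Not every library correlated best with its own number. The median SE of members not called in DLM8 was 0.29 on a median of 464 counts, and the part of depth in the missing calls was not tested.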
